A study of Mus musculus with 22 samples.

Results

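The replication-dependent histone genes were followed through every chromatin mark and transcription factor profiled in MC3T3-E1 cells, a mouse pre-osteoblast line. The genes were chosen by name, as the protein-coding genes of the mm9 annotation (GENCODE vM1) whose symbols begin with Hist1h, Hist2h, Hist3h or Hist4h. This gave 67 of 22350 protein-coding genes on chromosomes 1 to 19 and X: 6 genes for the linker histone H1, 19 for H2A, 18 for H2B, 11 for H3 and 13 for H4. Chromatin was immunoprecipitated and sequenced from undifferentiated cells and from cells differentiated for 15 days with glycerol-2-phosphate and ascorbic acid. All cells were MC3T3-E1 of passage 5 to 12, with no genetic change named in the labels, treated with ethanol vehicle or 100 nM calcitriol, the hormonal form of vitamin D, for the last 3 h. Marks (H3K4me3, H3K9ac, H4K5ac, H3K4me1 and H3K36me3), C/EBPβ and RUNX2 were read with calcitriol only, and the vitamin D receptor (VDR) and its partner RXR with vehicle and with calcitriol. Each of the 22 combinations was 1 list of regions, with no list per replicate and no read counts. Every value below is therefore a count or a share with no replicate error and no test, sequencing depth is unknown, and a gene outside a list may carry a signal under the caller's threshold. The differentiated cultures alone were homogenized and spun through sucrose to remove matrix, so differentiation and preparation cannot be told apart.

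Replication-dependent histone genes supply the histones that package newly copied DNA, and their transcripts are made mainly in S phase. They are short, lack introns as a rule, and their messenger RNAs end in a conserved stem-loop in place of a poly(A) tail. In the nucleus the clusters gather in the histone locus body, where the coactivator NPAT, the H4 promoter factor HINFP and the processing machinery collect. H3K4me3 and histone acetylation are marks of active starts, H3K4me1 flanks starts and covers enhancers, and H3K36me3 is laid down along transcribed gene bodies by a methyltransferase that travels with the polymerase.

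The 67 genes lay at 6 places when genes over 500 kb apart were separated. The first block of chromosome 13 held 23 genes in 327.9 kb (chr13:21807632-22135545), and the second held 31 in 403.8 kb (chr13:23622919-24026720). Hist1h2al stood alone at chr13:51298057-51298434. Chromosome 3 held the 9 Hist2h genes in 59.09 kb, chromosome 11 held Hist3h2ba and Hist3h2a, and chromosome 6 held Hist4h4. The median gene span was 530 bp, against 15532 bp for all other protein-coding genes, and 51 of the 67 spanned at most 1 kb. Head-to-head pairs of starts were sought among the histone genes alone. In all, 26 genes had a divergent partner 168 to 693 bp away (median 241 bp), and in 24 of them the pair joined an H2A and an H2B gene. The share of other protein-coding genes with such a partner was not counted.

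The 3′ stem-loop is the sequence by which these transcripts are recognized for processing, and it served as a check of the name-based choice. A match to the histone stem-loop consensus followed the coding end within 300 bp in 63 of the 67 genes (94%), and in 69 of all 22350 genes (0.309%). Hist1h2an, Hist1h2al, Hist2h2be and Hist2h2bb had none there, and H2afx, an H2A variant gene, was among the 6 other genes that did. The most frequent form occurred in 39 genes, the second in 9 and the third in 8. The forms below are read from the mm9 genome 5′ to 3′ on the gene's strand, with the stem and loop in capitals, and are shown because they differ within the stem in paired positions, or in the loop.
Hist1h3h, the form of 39 genes: tcaaaGGCTCTTTTCAGAGCCaccca
Hist1h2bb, the form of 9 genes: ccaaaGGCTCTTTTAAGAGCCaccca
Hist1h4k, the form of 8 genes: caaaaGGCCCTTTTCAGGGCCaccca
Hist1h4j, the form of 2 genes: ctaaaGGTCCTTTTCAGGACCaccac
The form of Hist1h4k was found in H4 genes, among them Hist1h4h and Hist4h4.

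Promoter sequences set the histone classes apart. Short motifs were counted on both strands from 250 bp before to 50 bp after each start, in mm9. CCAAT, the box bound by NF-Y, was present at every H1, H2A and H2B gene, at 90.9% of H3 genes and at 30.8% of H4 genes, against 37.9% of all promoters. TATAAA was present at 56.7% of histone genes and 13.4% of all promoters. The octamer ATTTGCAT, bound by POU factors, was found at 44.4% of H2B and 36.8% of H2A genes, at no H1, H3 or H4 gene, and at 1.73% of all promoters. GGTCCG, the core of the H4 promoter element, was found at 92.3% of H4 genes and 9.79% of all promoters. The RUNX core TGNGGT was found at 35.8% of histone genes against 43.8% of all promoters, and the C/EBP core TTNCNNAA at 64.2% against 38.8%. The windows of genes in close divergent pairs overlap, so 1 match can count for both genes. The octamer between Hist1h2ah and Hist1h2bk, for example, counts for each of them. These matches describe letters in the window, not binding.

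The whole stretch between the starts of divergent pairs, read on the plus strand of mm9, is shown for a pair under H3K4me3 in undifferentiated cells (Hist1h2an and Hist1h2bp, chr13:21879088-21879329) and for a pair without H3K4me3 or factor sites (Hist1h2ah and Hist1h2bk, chr13:22127513-22127689). Capitals mark the TATA box, the CCAAT box and the octamer, as spelled above, on either strand.
Hist1h2an to Hist1h2bp: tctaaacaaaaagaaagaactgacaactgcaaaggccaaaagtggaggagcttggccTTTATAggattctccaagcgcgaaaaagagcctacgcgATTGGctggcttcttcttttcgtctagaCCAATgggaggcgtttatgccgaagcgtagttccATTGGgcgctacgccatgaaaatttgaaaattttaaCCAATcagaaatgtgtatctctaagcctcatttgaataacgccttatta
Hist1h2ah to Hist1h2bk: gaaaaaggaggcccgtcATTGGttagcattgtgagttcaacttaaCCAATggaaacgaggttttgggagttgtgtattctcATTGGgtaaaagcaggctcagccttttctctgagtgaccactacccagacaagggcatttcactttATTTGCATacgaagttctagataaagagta
The first stretch held 4 CCAAT matches and 1 TATAAA match on either strand. The second held 3 CCAAT matches and the octamer, and both carried H3K9ac, H4K5ac and H3K4me1 in both states.

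Most histone gene starts were acetylated and carried H3K4me1 in both states, few carried H3K4me3, and none carried H3K36me3. A mark was counted when a listed region covered an annotated start of the gene. H3K9ac covered 55 of the 67 genes in undifferentiated cells and 56 in differentiated cells (82.1% and 83.6%). H4K5ac covered 57 and 56, and H3K4me1 52 and 54. H3K4me3 covered 6 genes in undifferentiated cells (8.96%) and 13 in differentiated cells (19.4%), where 35.1% and 42.4% of the other protein-coding genes had it.

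Other genes with H3K4me3 over a start, the comparison set for the remaining marks, nearly all had H3K9ac (99.5% in undifferentiated and 99.9% in differentiated cells) and H4K5ac (99.6% and 99.4%). H3K4me1 reached 96.2% and 96.4% of them. The histone genes' shares for these 3 marks, 77.6% to 85.1%, were lower than those shares. They were higher than the shares over all other protein-coding genes, with and without H3K4me3, which were 49.5% and 51.3% for H3K9ac, 53.4% and 53.2% for H4K5ac and 52.6% and 55.4% for H3K4me1. The histone genes' share with H3K36me3 over a start was 0, against 56.9% and 50.3% of other genes with H3K4me3. The samples' labels name H4K5ac, while their protocol text has H3K5Ac, so which residue that antibody recognized was not settled.

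**Figure D1:**
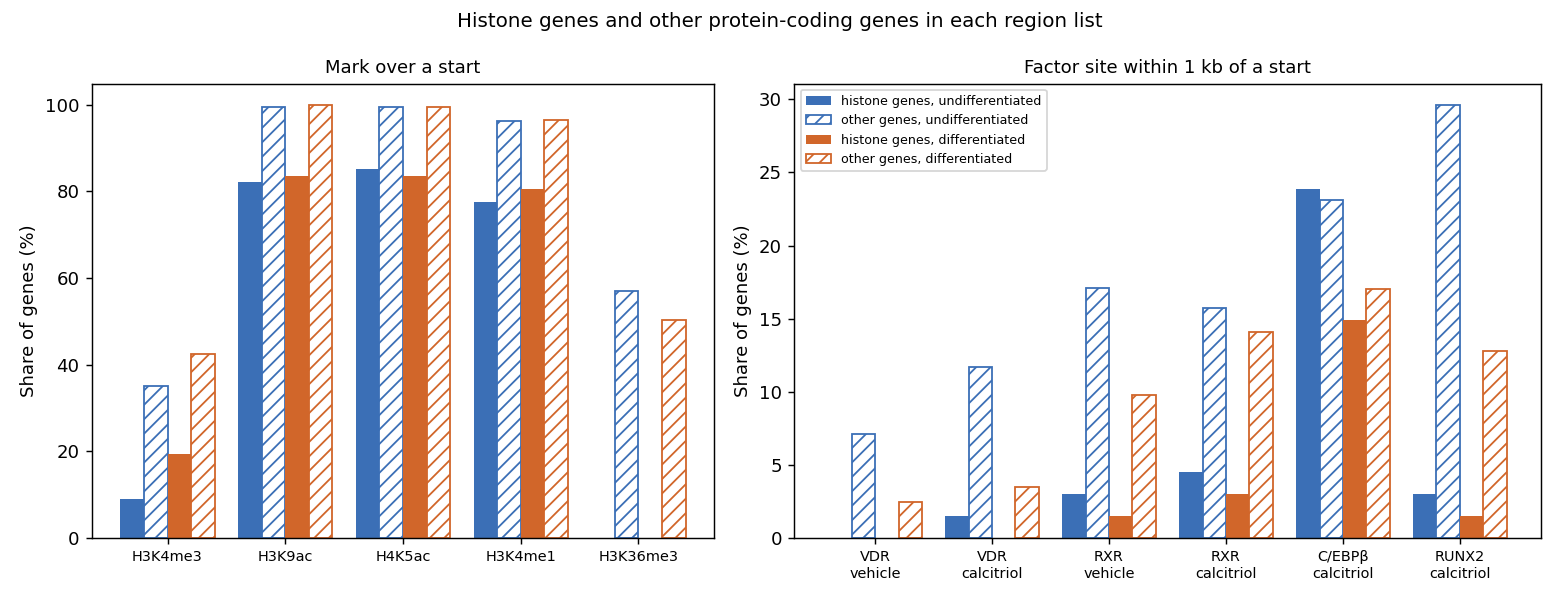
Share of genes (%) in each list, for the 67 histone genes (filled bars) and other protein-coding genes (hatched), undifferentiated in blue and differentiated in orange; the other genes are those with H3K4me3 over a start, except for H3K4me3 itself, where they are all other protein-coding genes. Histone genes reached 82.1% and 83.6% for H3K9ac but 8.96% and 19.4% for H3K4me3, and 0 for H3K36me3.

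The gap between acetylation and H3K4me3 was also seen when only acetylated genes were compared. Of the histone genes with H3K9ac over a start, 6 of 55 had H3K4me3 in undifferentiated cells (10.9%) and 13 of 56 in differentiated cells (23.2%). Of the other genes with H3K9ac, 70.6% and 82.5% had it. H3K9ac, H4K5ac and H3K4me1 without H3K4me3 was the state of 45 histone genes in undifferentiated and 43 in differentiated cells (67.2% and 64.2%), against 12.4% and 7.57% of other protein-coding genes. In 36 histone genes the 3 marks were listed in both states and H3K4me3 in neither. That pattern over both states was not counted for the other genes. The 36 genes include every encoded class, for example Hist1h1d (H1), Hist1h2ai (H2A), Hist1h2bl (H2B), Hist1h3h (H3) and Hist1h4k (H4). On chromosome 3 they include Hist2h3b and Hist2h2bb.

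The mark regions over histone genes were long and shared by neighbours, so gene counts overstate the number of separate regions. The 55 undifferentiated H3K9ac genes lay under 23 regions and the 56 differentiated ones under 21, with up to 5 genes under 1 region. The median width of these H3K9ac regions was 7071 and 7960 bp, against 3821 and 3835 bp for regions over the other genes with H3K4me3. For H4K5ac the medians were 11395 and 9928 bp against 6801 and 5038 bp. The longest H4K5ac region over a histone gene start in undifferentiated cells ran for 65375 bp and covered 14 histone genes of the second chromosome 13 block. The longest over one in differentiated cells was 25791 bp. For H3K4me1 the medians were 9949 and 9552 bp against 8143 and 7182 bp.

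**Figure D2:**
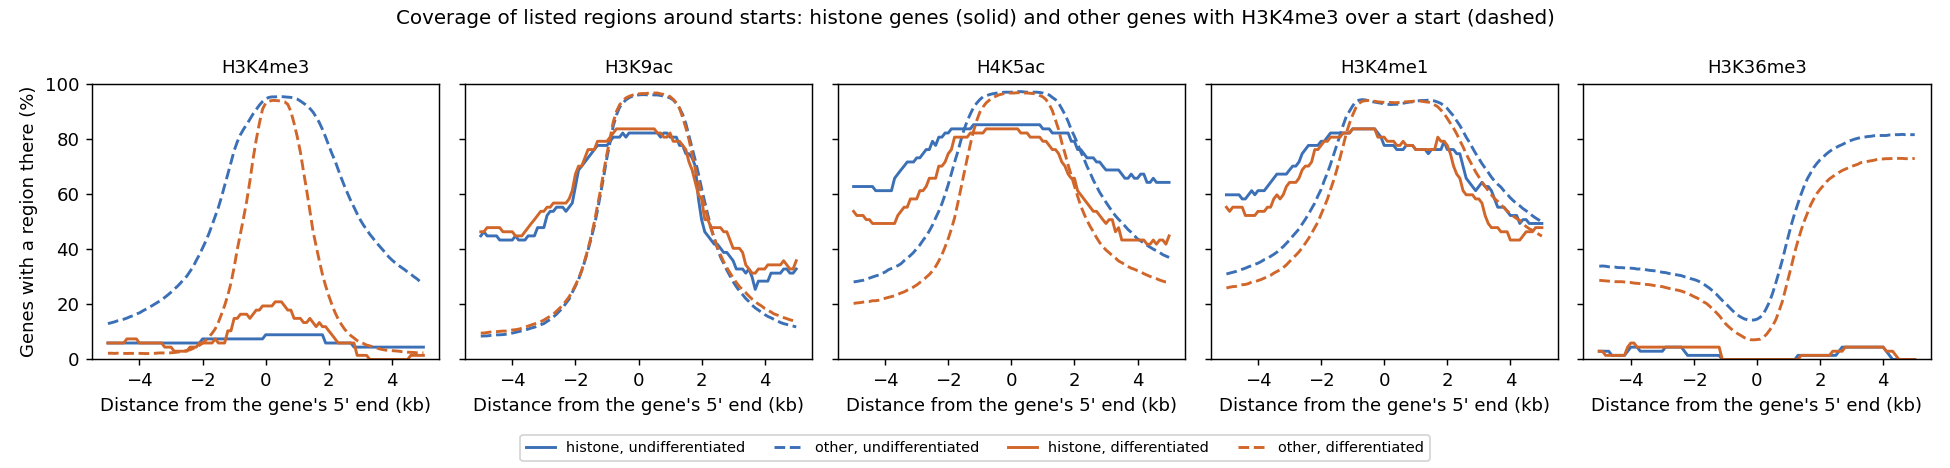
Share of genes (%) with a listed region at each distance (kb) from the gene's 5′ end, for the 67 histone genes (solid) and other genes with H3K4me3 over a start (dashed), undifferentiated in blue and differentiated in orange. In undifferentiated cells 5000 bp before the start, H3K9ac lay at 44.8% of histone genes and 8.47% of others, and H3K4me1 at 59.7% and 31%. At 5000 bp after it, H3K9ac lay at 32.8% and 11.8% and H3K4me1 at 49.3% and 49.8%, while at 2000 bp after it both were at smaller shares of histone genes (50.7% and 62% for H3K9ac, 76.1% and 91% for H3K4me1).

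The distance profile showed the same breadth. At 5000 bp before the start, H3K9ac regions covered 44.8% of histone genes and 8.47% of the other genes in undifferentiated cells, and 46.3% and 9.56% in differentiated cells. Neighbouring histone starts lie within such distances of each other, so a region at that distance can lie over the next gene's start.

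H3K4me3 in undifferentiated cells rested on 3 regions. One region of 11417 bp (chr13:21869729-21881145) covered Hist1h1b, encoding a linker histone, Hist1h3i, encoding H3, and the divergent pair Hist1h2an and Hist1h2bp, and this was the widest H3K4me3 region over a start of the 67 genes. The second, 8743 bp wide (chr6:136751062-136759804), covered Hist4h4 and also the start of H2afj, a replication-independent H2A gene beside it. The third, 5768 bp wide (chr11:58768102-58773869), covered Hist3h2a, whose annotated start at position 58768187 is also a start of Trim17, a ubiquitin ligase gene on the same strand. The second chromosome 13 block and the Hist2h genes of chromosome 3 had no H3K4me3 region over a start in these cells.

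In differentiated cells H3K4me3 lay over other histone genes. Only Hist3h2a and Hist4h4 had it in both states, 4 genes had it in undifferentiated cells alone (the 4 under the 11417 bp region) and 11 in differentiated cells alone, while 50 had it in neither. Of the other protein-coding genes, 1.33% had H3K4me3 in undifferentiated cells alone and 8.62% in differentiated cells alone. The 11 genes were Hist1h4h, Hist1h2bg, Hist1h2be, Hist1h1e and Hist1h1c in the second chromosome 13 block and Hist2h2ab, Hist2h2ac, Hist2h2be, Hist2h2aa1, Hist2h3c1 and Hist2h4 on chromosome 3. Hist1h1e and Hist1h1c encode linker histones, Hist1h4h and Hist2h4 encode H4, Hist2h3c1 is an H3 gene, and the rest encode H2A or H2B.

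The 13 differentiated genes lay under 9 regions of 1546 to 3894 bp (median 2375 bp), close to the median of 2258 bp over other genes. In undifferentiated cells the 3 regions had a median of 8743 bp and those of other genes 5319 bp. The widest differentiated region, 3894 bp (chr3:96048388-96052281), covered Hist2h2aa1 and Hist2h3c1. The region of 2981 bp (chr3:96022627-96025607) covered Hist2h2ab, Hist2h2ac and Hist2h2be. Where undifferentiated cells had the 8743 bp region at Hist4h4 and H2afj, the differentiated list had separate regions of 1815 bp over Hist4h4 and 3177 bp over H2afj. The region of 2397 bp at Hist1h1e also covered the upstream start annotated for Hist1h2be, a gene drawn over 37383 bp whose stem-loop lies at position 23677400, far from that start.

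The differentiated H3K4me3 count rested partly on low-scoring regions. When the lowest 25% of regions by the deposited score were left out, 6 of the 13 genes remained (Hist3h2a, Hist1h4h, Hist2h2ab, Hist2h2ac, Hist2h2be and Hist2h4) and the share of other genes fell to 33.6%. All 6 undifferentiated genes remained, with 27.1% of other genes. The 9 differentiated regions ranked between the 5.68th and the 56.8th percentile of their list by that score, with a median of 24.9, and the 3 undifferentiated regions between 37.1 and 69.2.

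In undifferentiated cells, 49 histone genes had H3K9ac over a start and no H3K4me3. None of them had an H3K4me3 region within 2 kb of a start, and the median distance to the nearest was 123 kb. In differentiated cells 7 of the 43 had one within 2 kb, and the median distance was 16.3 kb. Neighbouring genes can share their nearest region, so these distances are not separate values. Distances were not computed for other genes. Hist1h2ae lay 92 bp from the region over its divergent partner Hist1h2bg. Hist1h2bc and its partner Hist1h2ac lay 261 and 512 bp from another.

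**Figure D3:**
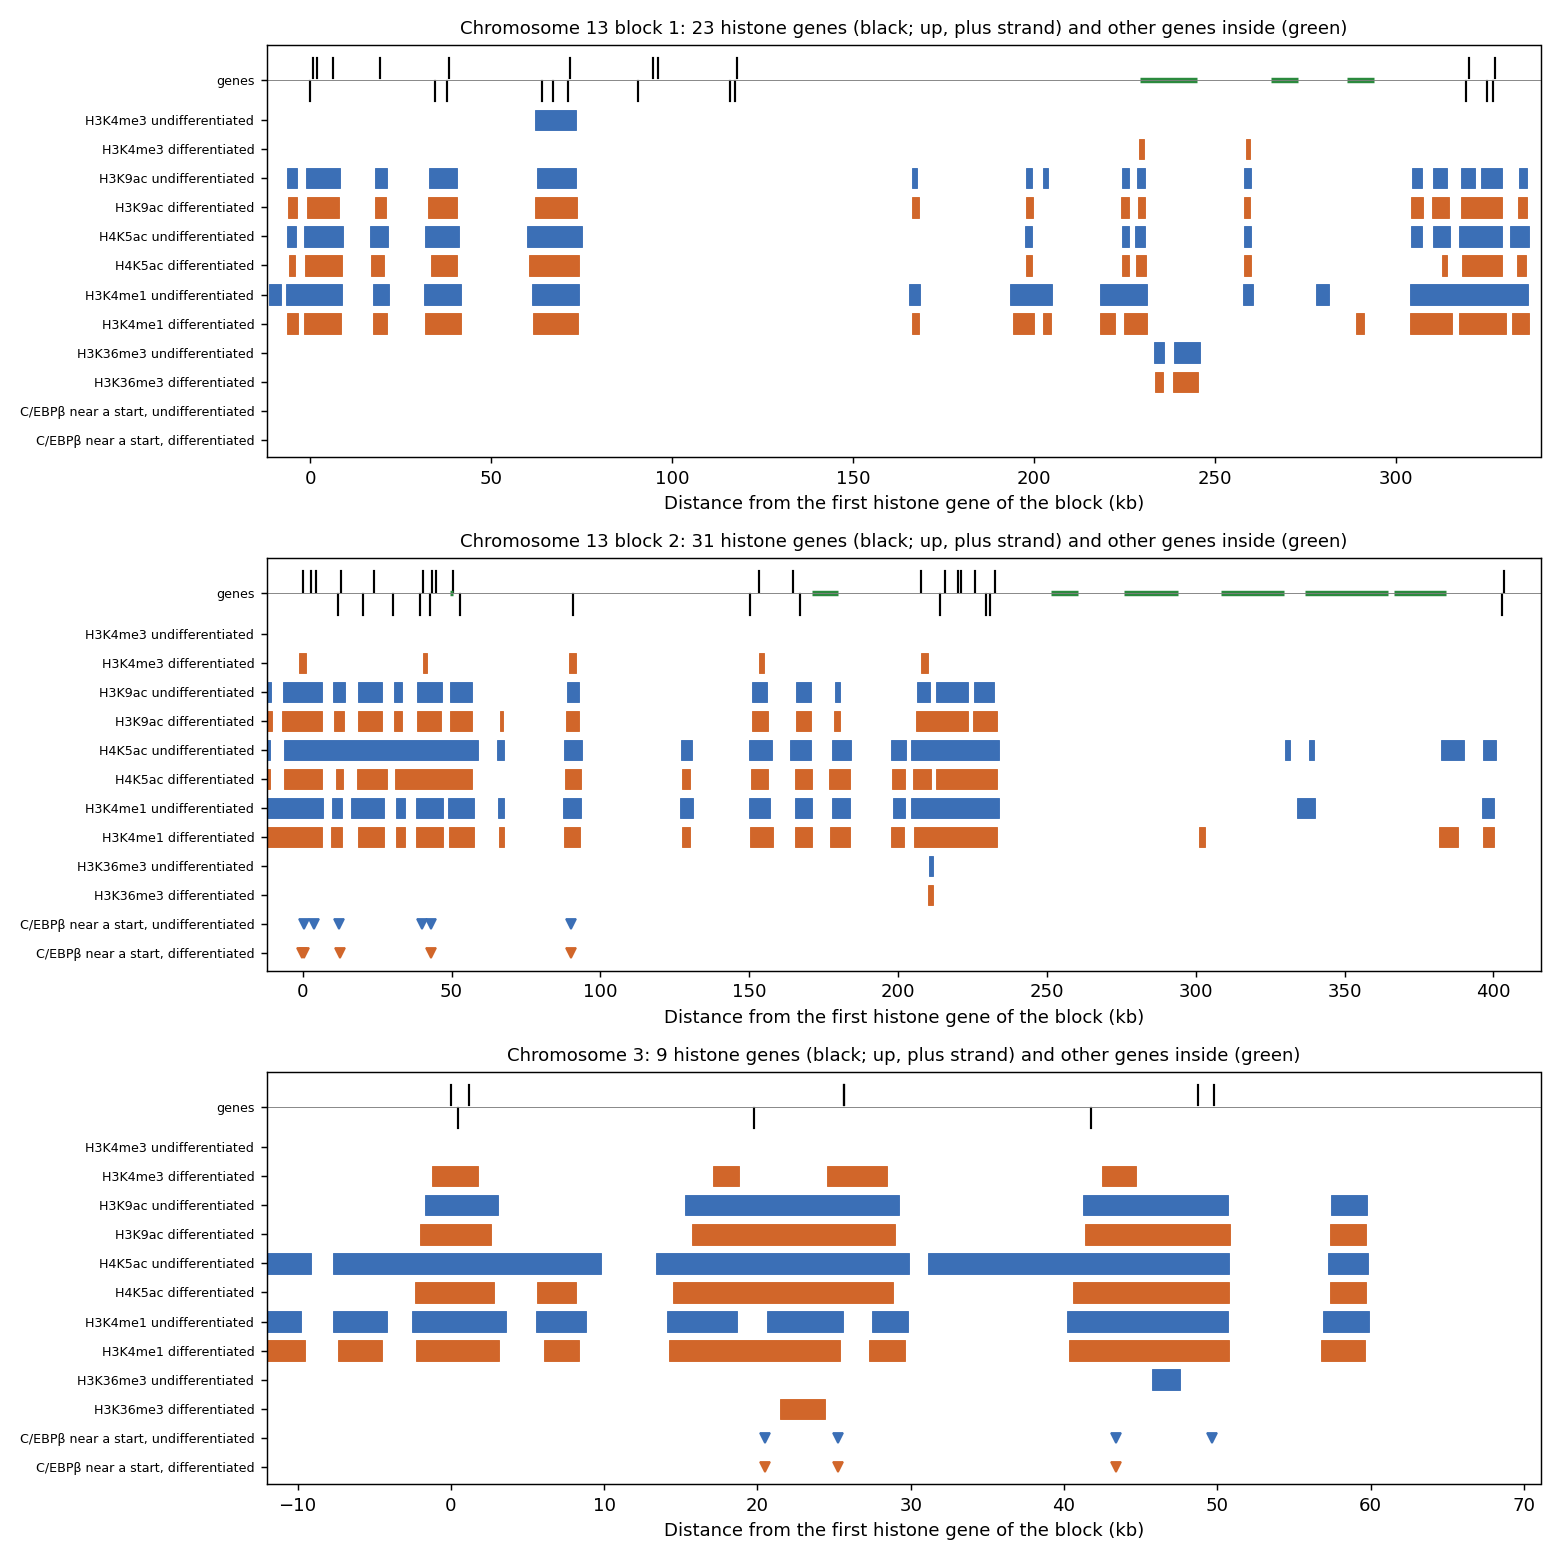
Listed regions along the 2 chromosome 13 blocks and the chromosome 3 cluster, by distance (kb) from the first histone gene, with each mark in undifferentiated (blue) and differentiated (orange) cells, histone genes as black ticks, other genes in green and C/EBPβ sites within 1 kb of a histone start as triangles. H3K4me3 covers 4 genes of the first block in undifferentiated cells only, and 5 genes of the second block and 6 of chromosome 3 in differentiated cells only, of which 1 and 4 lie under regions above the lowest 25% by score.

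The change of H3K4me3 between states was also counted by locus. In the first block of chromosome 13, 4 of 23 genes, under 1 region, had it in undifferentiated cells and 0 in differentiated cells. The differentiated list held 2 other regions in that block, chr13:22036556-22038058 and chr13:22066040-22067294, neither over a histone gene start. In the second block the counts were 0 and 5 of 31, and on chromosome 3 they were 0 and 6 of 9. Without the lowest 25% of regions by the deposited score, the second block kept 1 of its 5 genes, Hist1h4h, and chromosome 3 kept 4 of its 6, while the first block kept its 4 in undifferentiated cells. H3K9ac differed little in the same genes: 17 and 17 in the first block, 27 and 28 in the second, and 9 and 9 on chromosome 3. Each block was measured in 1 list a state, so whether these differences exceed the spread between cultures was not tested.

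H3K9ac, H4K5ac and H3K4me1 changed at 4 genes in all. Of the other protein-coding genes, 0.269%, 1.8% and 1.62% had these marks in undifferentiated cells alone, in that order. In differentiated cells alone the shares were 2.1%, 1.62% and 4.32%. The histone genes' shares were 0, 1.49% and 0, then 1.49%, 0 and 2.99%, so the 4 changes do not set them apart from other genes. H3K9ac was listed over Hist1h1a, a linker histone gene, in differentiated cells alone, and H4K5ac over the testis linker histone gene Hist1h1t in undifferentiated cells alone. H3K4me1 was listed over Hist1h3e and Hist2h2aa2 in differentiated cells alone. Hist2h2aa1 and Hist2h3c1 had H3K9ac and H4K5ac in both states but H3K4me1 in neither. By class, every H3 gene had H3K9ac and H4K5ac in both states, and 11 of the 13 H4 genes had H3K9ac, H4K5ac and H3K4me1 in both.

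**Figure D4:**
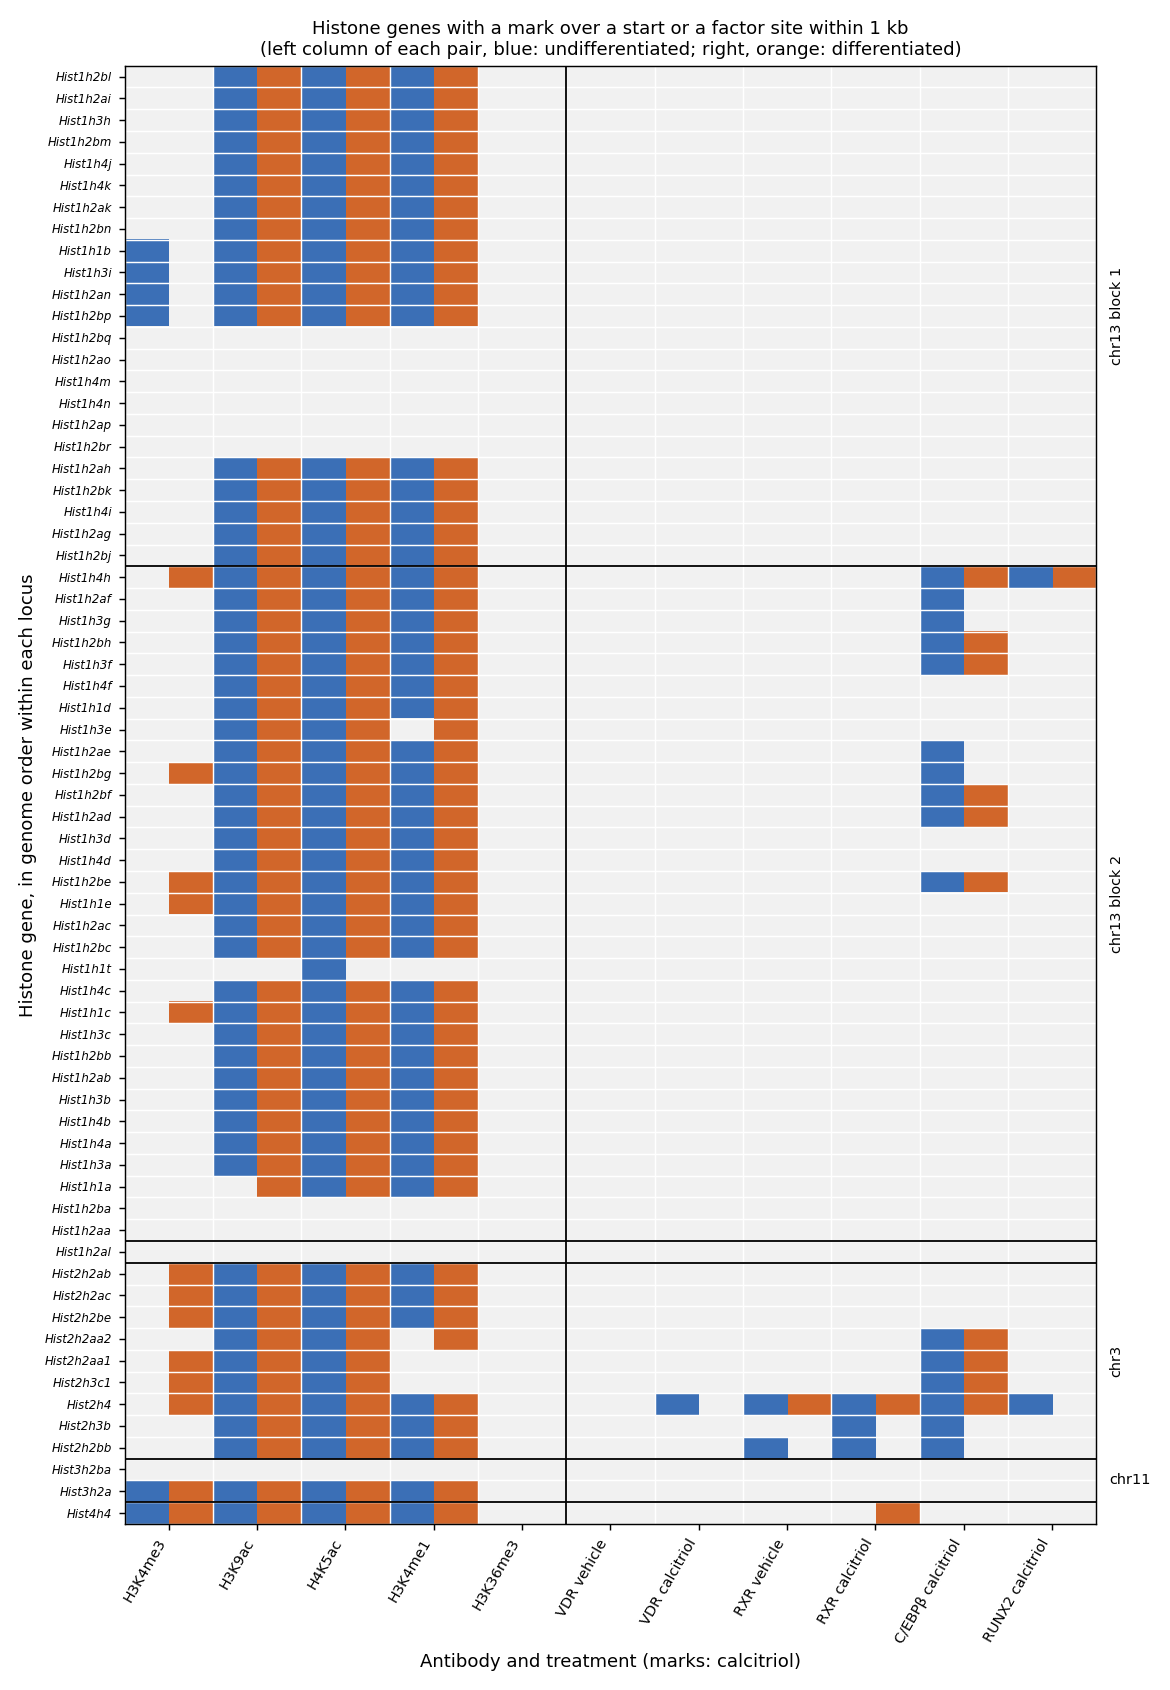
Each of the 67 histone genes (rows, in genome order within each locus) in each of the 22 lists (columns, undifferentiated in blue on the left of each pair, differentiated in orange on the right); a filled cell means a region over a start for marks or a site within 1 kb for factors. Columns of H3K9ac, H4K5ac and H3K4me1 are nearly full, H3K4me3 is sparse and differs between states, and factor sites gather in the second chromosome 13 block and on chromosome 3.

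H3K36me3 was missing from the histone genes over their whole span as well as over their starts. A region overlapped the span of 1 histone gene in each state, Hist3h2a, which is annotated over 1990 bp. In each state that region ran past the end of Hist3h2a and lay inside the span of Trim17 (chr11:58768187-58786600). It therefore cannot be assigned to Hist3h2a alone. Of the other genes with H3K4me3 over a start, 96.1% and 94.7% had H3K36me3 somewhere in their span in undifferentiated and differentiated cells. Those genes are far longer (median 24315.5 and 24223.5 bp). Among the other H3K4me3 genes that span at most 1 kb, 28 of 72 (38.9%) and 20 of 81 (24.7%) overlapped an H3K36me3 region. The part of gene length in the difference from the histone genes was not tested.

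In all, 10 histone genes were in no list of any mark or factor. No mark lay over a start at 14.9% of histone genes in undifferentiated and 16.4% in differentiated cells. Of other protein-coding genes, 41% and 40.2% had no mark over a start, so unmarked genes were rarer among the histone genes. Hist1h1t, Hist1h2aa and Hist1h2ba encode histones of the male germ line, and of these Hist1h2aa and Hist1h2ba were in no list and Hist1h1t was in 1. Hist3h2ba and the isolated Hist1h2al were also in none. The other 6, Hist1h2bq, Hist1h2ao, Hist1h4m, Hist1h4n, Hist1h2ap and Hist1h2br, are neighbours in the first chromosome 13 block. Their coding sequences form 3 pairs of identical copies, Hist1h2bq with Hist1h2br, Hist1h2ao with Hist1h2ap and Hist1h4m with Hist1h4n.

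Near-identical sequence bears directly on those 6 genes. Within 1 kb of their starts, 0 to 4.26% of 32-base words occurred at 1 place only in mm9, against a median of 77.4% for the 57 histone genes in some list and a lowest value of 40.5% among them. Reads from such sequence cannot be placed uniquely, and the sources used here do not say how the authors' alignment treated them, so a missing region at these 6 genes says nothing about the mark. The 4 remaining genes without a region had 58.3% (Hist1h2al), 88.7% (Hist3h2ba) and 89.3% (Hist1h2ba and Hist1h2aa) unique words.

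Among the genes with acetylation, those with and without H3K4me3 had overlapping ranges of unique words. The 17 genes with H3K4me3 in 1 or both states had a median of 82.5% unique words (range 40.5 to 98.9%). The 36 genes with the 3 other marks and no H3K4me3 had a median of 73.7% (range 54.7 to 91.2%). Whether sequence uniqueness has a part in the missing H3K4me3 regions was not tested. The coding sequences themselves were far less unique, with a median of 16.9%. The 13 H4 genes carried 12 coding sequences and 1 translated protein, the 11 H3 genes 3 proteins, the 19 H2A genes 10, the 18 H2B genes 11 and the 6 H1 genes 6.

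**Figure D5:**
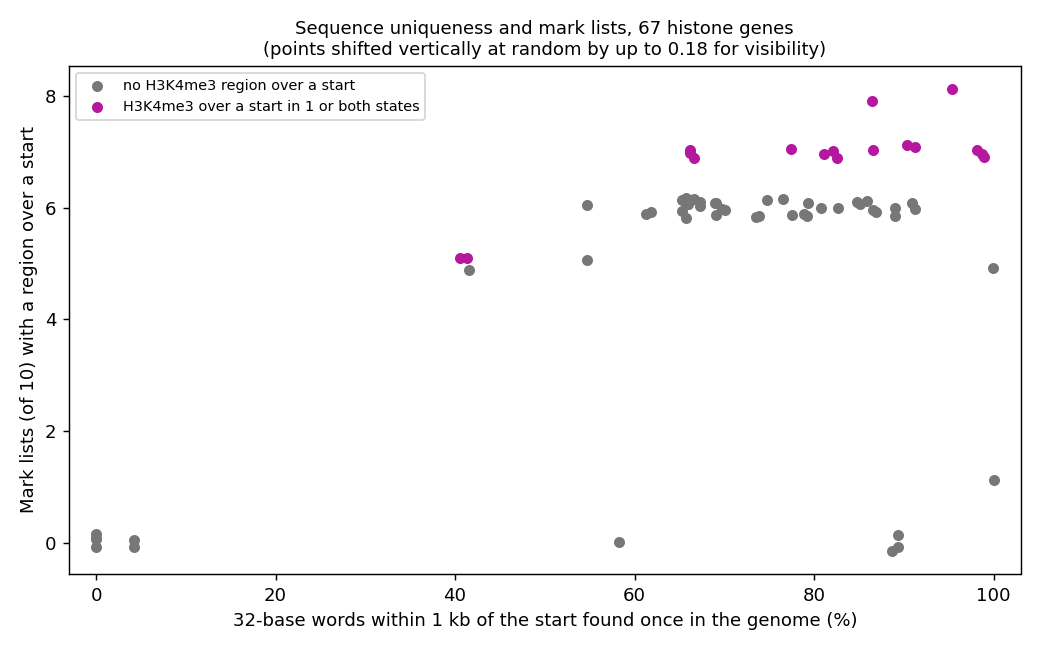
Number of mark lists (of 10) with a region over a start against the share (%) of 32-base words within 1 kb of the start that occur at 1 place only in mm9, for 67 histone genes; points are shifted vertically at random for visibility, and purple points have H3K4me3 in 1 or both states. The 6 duplicated genes sit at 0 to 4.26% and in 0 lists, and genes with H3K4me3 span 40.5% to 98.9%, a range that also holds genes without it from Hist2h2aa2 at 41.5% to Hist1h4c at 91.2%.

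Factor sites were counted when a 201 bp region came within 1 kb of a start, and 17 of the 67 histone genes had any. The share of other genes with a site of any factor was not counted. C/EBPβ, a leucine zipper factor of the osteoblast and adipocyte lineages, accounted for most: 16 genes in undifferentiated cells and 10 in differentiated cells, from 10 and 8 separate sites. These are 23.9% and 14.9% of the histone genes, close to the 23.1% and 17% of other genes with H3K4me3. Of all other protein-coding genes, with and without H3K4me3, 11.3% and 8.56% had a C/EBPβ site, and most of the histone genes lack H3K4me3, so the reading depends on the set compared. The other factors were listed near smaller shares of histone genes than of other genes with H3K4me3, and the gap was smaller against all other protein-coding genes. RUNX2, the runt-domain regulator of bone formation, was near 2 and 1 histone genes, where 29.6% and 12.8% of other genes had it. RXR with vehicle was near 2 and 1 (17.1% and 9.79% of others), and with calcitriol near 3 and 2 (15.7% and 14.1%). VDR with vehicle was near none (7.13% and 2.44%), and with calcitriol near 1 in undifferentiated and 0 in differentiated cells (11.7% and 3.5%). Of all other protein-coding genes, 13.2% and 6.28% had RUNX2, 7.42% and 4.62% RXR with vehicle and 6.88% and 6.7% RXR with calcitriol. VDR was near 2.98% and 1.09% of them with vehicle and 5.23% and 1.57% with calcitriol. The smaller of these shares correspond to few of 67 genes.

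C/EBPβ sites lay at 10 genes of the second chromosome 13 block and 6 genes of chromosome 3, and within 1 kb of none of the 23 genes of the first block. The 10 genes with a site in both states were Hist1h4h, Hist1h2bh, Hist1h3f, Hist1h2bf, Hist1h2ad, Hist1h2be, Hist2h2aa2, Hist2h2aa1, Hist2h3c1 and Hist2h4. Hist1h2af, Hist1h3g, Hist1h2ae, Hist1h2bg, Hist2h3b and Hist2h2bb had one in undifferentiated cells alone, and no gene had one in differentiated cells alone. The site counted for Hist1h2be (chr13:23712931-23713131 in undifferentiated cells) lay at its upstream annotated start, far from its stem-loop. Of the other protein-coding genes, 3.59% had a site in undifferentiated cells alone and 0.871% in differentiated cells alone. With a limit of 2 kb the counts were 22 and 16 of the 67 genes. Of other genes with H3K4me3 over a start, 27.4% and 20.8% had a site within 2 kb. Hist1h2bl and Hist1h2ai of the first block entered in both states at that limit.

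Some C/EBPβ sites lay between divergent starts. The site in the gap between Hist1h2bf, an H2B gene, and Hist1h2ad, an H2A gene, was listed at chr13:23666102-23666302 in undifferentiated cells and chr13:23666101-23666301 in differentiated cells. The stretch between the starts (chr13:23666066-23666249, mm9 plus strand) is shown with the CCAAT box, the TATA box and the C/EBP core, as spelled above, in capitals on either strand.
Hist1h2bf to Hist1h2ad: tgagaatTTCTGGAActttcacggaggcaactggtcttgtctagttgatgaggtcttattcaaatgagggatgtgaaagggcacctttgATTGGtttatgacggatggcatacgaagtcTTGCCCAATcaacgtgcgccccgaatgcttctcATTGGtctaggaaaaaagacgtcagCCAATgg
It held 4 CCAAT matches and 2 matches of the C/EBP core. The first core match lies outside the listed C/EBPβ site in both states, and the second lies inside it and overlaps a CCAAT match. Of the 10 undifferentiated sites near histone genes 7 held the C/EBP core, and of the 8 differentiated sites 7 did, against 72% and 77% of all regions of those lists. The site between Hist1h2bh and Hist1h3f (chr13:23635284-23635484) was also present in both states, while the site beside Hist1h2ae and Hist1h2bg (chr13:23662901-23663101) was listed in undifferentiated cells alone. The sites before Hist2h2aa2 and Hist2h2aa1 had their centres at -235 and -241 bp from the start in undifferentiated cells. These genes have identical coding sequences and 41.5% and 41.3% unique words around their starts, so their sites may share reads.

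Hist2h4, an H4 gene of chromosome 3, had more kinds of factor than any other histone gene. It was the sole histone gene with VDR, through 2 sites in undifferentiated cells with calcitriol within 1 kb of its start, the farther of them at chr3:96067756-96067956 with its centre at -622 bp from the start. Neither site overlapped a VDR site with vehicle or in differentiated cells. RXR was listed within 1 kb in all 4 RXR lists, and with calcitriol in undifferentiated cells it had 2 sites there, 1 overlapping each VDR site. C/EBPβ was listed in both states, and RUNX2 in undifferentiated cells. The farther VDR site is shown on the gene's minus strand in mm9, with the C/EBP core in capitals.
Hist2h4, site farther from the start: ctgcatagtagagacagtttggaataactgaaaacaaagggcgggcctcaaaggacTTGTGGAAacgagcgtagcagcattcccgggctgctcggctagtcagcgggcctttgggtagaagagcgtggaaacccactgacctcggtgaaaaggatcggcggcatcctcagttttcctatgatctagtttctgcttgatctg
It held no direct repeat of the nuclear receptor half-site with a 3 bp spacer at up to 1 mismatch, a match that 14.8% of all undifferentiated VDR regions with calcitriol held and 24% of the differentiated ones. Acetylation and H3K4me1 covered Hist2h4 in both states, and H3K4me3 in differentiated cells alone (2184 bp, chr3:96066349-96068532).

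The remaining nuclear receptor and RUNX2 sites were at 4 genes. Hist1h4h, an H4 gene at the edge of the second chromosome 13 block, was the only histone gene with RUNX2 in both states (chr13:23622791-23622991 in undifferentiated and chr13:23622880-23623080 in differentiated cells, with centres at -28 and 61 bp from the start). It had a C/EBPβ site in both states, with centres 498 and 495 bp after the start, and a further site at -42 bp in differentiated cells. The part of the undifferentiated RUNX2 site that precedes the start (chr13:23622791-23622918, plus strand) is shown with the H4 promoter core GGTCCG in capitals.
Hist1h4h, before the start: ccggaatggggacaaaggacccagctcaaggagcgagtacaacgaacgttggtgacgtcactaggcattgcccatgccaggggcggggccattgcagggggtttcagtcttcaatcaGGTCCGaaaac
The RUNX core TGNGGT was not in this stretch, although the whole 201 bp region held 1 match. Both undifferentiated RUNX2 regions and the differentiated one near histone genes held that core, as did 74.7% and 78.7% of all regions of those lists. RXR lay at Hist2h2bb with vehicle and with calcitriol in undifferentiated cells alone, and the calcitriol site also came within 1 kb of the start of Hist2h3b. At Hist4h4 RXR was listed with calcitriol in differentiated cells alone (chr6:136752823-136753023, centre at -23 bp).

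Counted within 1 kb of a start, the lists with calcitriol and with vehicle differed in VDR or RXR at 3 histone genes. With hormone VDR was added at Hist2h4 in undifferentiated cells, and RXR was added at Hist4h4 in differentiated cells. At Hist2h3b RXR was counted with calcitriol alone in undifferentiated cells, but that site (chr3:96073555-96073755) overlapped a vehicle site (chr3:96073714-96073914). The vehicle site lay beyond 1 kb from that start. With a limit of 2 kb, RXR was near 3 histone genes with vehicle and 3 with calcitriol in those cells. No histone gene had VDR or RXR with vehicle and lacked it with calcitriol. Of 22283 other protein-coding genes, VDR was listed with calcitriol alone at 582 in undifferentiated and 114 in differentiated cells, and RXR at 437 and 645. With vehicle alone, VDR was listed at 80 and 6 and RXR at 558 and 181. Each is a small part of the other genes, so the differences at the 3 histone genes are not read as particular to them. Marks, C/EBPβ and RUNX2 with vehicle were not analysed here, so no effect of the hormone on them can be read.

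Genes that work with the replication-dependent histones were read from lists chosen by function. Of 12 annotated replication-independent histone genes, whose products enter chromatin outside S phase, 9 had H3K4me3 in both states, among them H3f3a, H3f3b, H2afz, H2afx and the centromeric H3 gene Cenpa. H2afy2, H1fnt and H1foo, the latter expressed in oocytes, had it in neither. H3K36me3 overlapped the span of 9 and 8 of the 12. Of 12 genes of the histone locus body and histone messenger processing, 11 had H3K4me3 in undifferentiated and 12 in differentiated cells. They include Npat and Hinfp, and Slbp, whose product binds the stem-loop and whose region was 13808 bp wide in undifferentiated and 2641 bp in differentiated cells. Lsm10, a subunit of the U7 particle, had H3K4me3 in differentiated cells alone. Of 23 genes of DNA replication and S phase, all had H3K9ac in both states, and 18 and 22 had H3K4me3. Mcm3, Mcm6, Tk1, Chaf1b and Ccne2 had it in differentiated cells alone and Asf1b, a histone chaperone gene, in undifferentiated cells alone.

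The labelled cell type was checked by H3K4me3 over the starts of 8 osteoblast genes. Runx2, Sp7, Col1a1, Col1a2 and Sparc had it in both states, and Alpl, Bglap and Ibsp in neither. None of 10 marker genes of adipocytes, muscle, blood cells and neurons had it in either state.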

How the data were processed

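Reads were processed by the authors with Bowtie and HOMER on mm9, per the submitters' processing notes. The sources used here give no versions, thresholds or treatment of reads that match several places. The deposited lists give region positions, and the region names show 70.4% to 99.6% of each list as a merger of 2 peaks, so each list was read as an overlap of replicates. Lists held 274 to 53858 regions. The score deposited by the authors was 0 in every factor list; in mark lists it varied and its meaning is not stated, and it was used in 1 alternative alone. Regions on chromosomes 1 to 19 and X were kept (96 others left out) and placed on NCBIM37 with GENCODE vM1.

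A mark was called where a region covered at least 1 bp of an annotated start, and a factor where a region came within 1 kb. Genes were named by rule: each member with a factor site, each without H3K4me3 in 1 or both states (those in counts by example), all Hist2h, Hist3h and Hist4h genes, the testis genes, those with the widest H3K4me3 regions, and other genes inside the loci or in lists. Where a symbol had several gene IDs, the longest was used. The members, lists and comparisons were chosen with earlier results of these data known. Overlap and word counting were tested on simulated data. Python 3.11.15, pandas 2.3.3, NumPy 2.4.6 and matplotlib 3.10.9 were used. Alternatives varied the start, the distance, the score, the members and the comparison genes. The sequence of 1 site is not reported here.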

Additional observations from a re-analysis of the deposited data

How the results depend on the processing

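Of 110 recomputed counts of histone genes, 107 stayed within 1.5 times of the reported count and none reversed. Without the lowest 25% of regions by the deposited score, H3K4me3 covered 6 rather than 13 genes in differentiated cells, because 7 genes lay under regions in that part of the list. With C/EBPβ sites counted up to 2 kb from a start, 16 rather than 10 genes had one in differentiated cells. With only the 63 stem-loop genes, RXR with vehicle in undifferentiated cells was near 1 gene rather than 2, since Hist2h2bb lacks the stem-loop. Using the gene's own 5′ end alone, or the 58 genes with at least 50% unique words, left every count within 1.5 times. Among comparison genes that span at most 1 kb, H3K36me3 over a start fell to 29.2% and 14.8%. Of 40 recomputed comparison shares 23 lay outside the counting interval of the reported share. Restricting to genes with H3K9ac and searching the receptor repeat were chosen after seeing the data. No paired analysis was possible because each group is 1 list. Depth is unknown, and absence from a list is not absence of the mark.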

Other observations

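The histone blocks also hold 11 other protein-coding genes. Trim17, Zfp184, a zinc finger gene, Gm17658 and Hfe, an iron-sensing gene, had H3K9ac, H4K5ac and H3K4me1 over a start in both states. Trim17 had H3K4me3 in both states and Zfp184 in differentiated cells alone. Prss16, Pom121l2, Trim38 and the phosphate transporter genes Slc17a1, Slc17a2, Slc17a3 and Slc17a4 had no H3K9ac or H3K4me3 in either state. None of the 11 had a factor site within 1 kb of a start in any list. H3K36me3 in the first chromosome 13 block was listed as 2 regions in each state, the longer of 7105 and 6984 bp, and neither covered a histone gene.

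H2afx, which makes the DNA damage variant of H2A, was the other histone gene with a stem-loop after its coding sequence. It had H3K4me3 over a start in both states, in regions of 4901 and 2399 bp, with H3K9ac, H4K5ac, H3K4me1 and H3K36me3 there too. H2afz, whose region was 11848 bp wide in undifferentiated and 5493 bp in differentiated cells, had the widest H3K4me3 region of the 12 replication-independent histone genes in each state.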
